A study of Saccharomyces cerevisiae with 9 samples.

Results

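The transcripts described here are 8 yeast genes that deal with superoxide and hydrogen peroxide. They are the catalases CTA1 and CTT1, the superoxide dismutases SOD1 and SOD2, cytochrome c peroxidase CCP1, the copper chaperone CCS1, and the transcription factors YAP1 and SKN7. A gene was followed through the probe sets that the platform annotation assigns to that gene alone. This gave 8 probe sets for the 8 genes, out of 9335 on the array; 60 of those are controls, and the other 9275 were tested. By gene these were 8 of the 5656 genes that such probe sets represent. No probe set named any of the 8 together with another gene.

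RNA of Saccharomyces cerevisiae was measured on 9 one-colour Affymetrix Yeast S98 arrays, in 3 groups of 3. BY4743, a diploid of the S288C background bred for laboratory work, has no working copy of URA3, LEU2 or HIS3 and 1 working copy each of LYS2 and MET15. Control BY4743 was grown at 30 °C in rich glucose medium to an A600 of 0.8 and sampled after it had been put into 20-fold diluted medium at 22 to 25 °C. Dried BY4743 came from the same kind of suspension after 42 h of drying in dishes and 72 h at 20% relative humidity. Both BY4743 groups therefore shared strain, growth and the diluted medium, and no group was held undried for the same time. For the third group, commercial dry active yeast, the sources used here give no strain and no culture or drying conditions of its own. Nothing in the labels ties the 3 arrays of a group to separate cultures. The p-values then measure only the scatter among these arrays, and that scatter may be technical. A ± gives the SD over the 3 arrays of a group, a number that limits the precision of every value.

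Respiring and dried cells meet superoxide and hydrogen peroxide. Superoxide dismutases turn superoxide into hydrogen peroxide, and catalases and peroxidases then remove the peroxide. Yeast keeps isozymes in different places: Cta1 works in peroxisomes, where fatty acid oxidation makes peroxide, and Ctt1 in the cytosol, Sod1 mainly in the cytosol with copper and zinc, and Sod2 in the mitochondrial matrix with manganese. Ccp1 sits between the mitochondrial membranes and takes electrons from cytochrome c, Ccs1 loads copper into Sod1, and Yap1 and Skn7 together switch on many genes of the peroxide response.

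Signals are given on a linear scale after the arrays were brought to a common distribution by quantile normalization, and changes are log2 differences between group means. Between 72.1% and 81.3% of the probe sets on an array lay above its background, which was 32.2 to 59.5 in signal. All 8 probe sets lay above background on all 9 arrays, so none was lost to a filter and every fold change is measured on both sides. As a check of the labels, URA3 lay at background in control (signal 2.80 ± 0.398) and dried BY4743 (1 ± 0, the lowest value used) and read 365 ± 36.3 in commercial yeast. LEU2 read 84.5 ± 11.4 in the control, against the genotype, 29.7 ± 14.4 in dried BY4743, which is background, and 382 ± 54.3 in commercial yeast. Of 10 haploid-cell markers, 4 lay above background on all arrays of the control and of dried BY4743 and 5 in commercial yeast, and 5, 5 and 2 lay at background on all arrays of these groups. Their summed signal was 1031 to 1102 in the control, 958 to 1048 in dried BY4743 and 1035 to 1316 in commercial yeast, and whether they bear on the 8 genes was not tested. The 3′ minus 5′ signal of control genes, read as a sign of RNA integrity, differed between the groups, but not in the same order for each gene. For ACT1, the actin gene, the 3′ minus the 5′ control signal was -0.40 ± 0.274 on the log2 scale in the control, 1.40 ± 0.173 in dried BY4743 and 0.42 ± 0.0980 in commercial yeast. SRB4, a mediator subunit gene, gave 1.20 ± 0.271, 1.48 ± 0.0887 and 2.62 ± 0.400 in the same order, and SPT15, the TATA-binding protein gene, 1.31 ± 0.0912, 1.63 ± 0.107 and 1.99 ± 0.108. All 3 were higher in both dry yeasts than in the control by their means, with overlapping arrays only for SRB4 in dried BY4743. Their part in the results below was not tested. In these bulk samples, fewer cells that make a transcript and less of it per cell cannot be told apart.

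**Figure D1:**
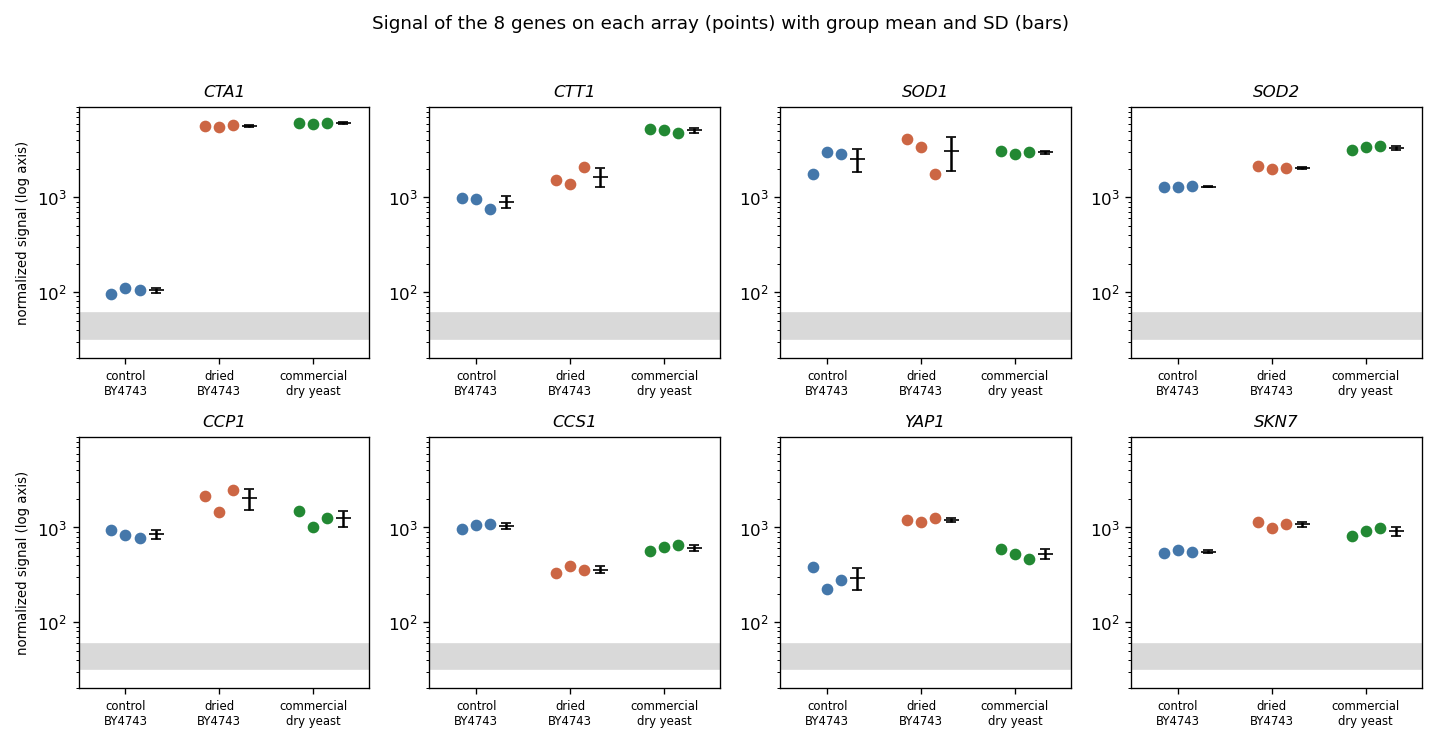
Normalized signal (log axis) of the 8 genes on each of the 9 arrays, as points coloured by group, with the group mean and SD as a bar beside them and the range of array backgrounds (32.2 to 59.5) as a grey band. CTA1 lies near 104 on the control arrays and at 5553 or above on all dried and commercial arrays, CCS1 is lowest in dried BY4743, and SOD1 scatters most within its groups.

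The catalase genes followed different courses. CTA1 was low in the control and high in both dry yeasts, and CTT1 rose modestly in dried BY4743 and much further in commercial yeast. The probe set of CTA1 (6221_at, locus YDR256C) read 95.9, 110.0 and 106 on the control arrays, 5626, 5553 and 5780.5 on those of dried BY4743, and 6166, 5949 and 6103 on those of commercial yeast. All 6 arrays of dry yeast lay far above the 3 control arrays. CTA1 was 54.4-fold higher in dried BY4743 than in the control, a log2 change of 5.77 (SE 0.08, limma, Benjamini-Hochberg adjusted p = 3.86e-09), and 58.5-fold higher in commercial yeast, a log2 change of 5.87 (adjusted p = 2.95e-09). With spike-in scaling these log2 changes were 5.32 and 4.58, both called. After quantile normalization the first of them was higher than those of 99.7% of all probe sets. The SD of CTA1 over the dried arrays was 116 after that step and 591 in the deposited values. The small SE thus rests in part on the normalization. With the deposited values the change from control to dried BY4743 was 5.73 (limma adjusted p = 1.18e-08). Commercial yeast differed from dried BY4743 by 0.10 (95% interval -0.07 to 0.28, adjusted p = 0.264), although the arrays of these groups did not overlap. This comparison depended on scaling: the change was 0.50 with the deposited values (adjusted p = 0.00231), 0.53 with arrays centred on their medians (adjusted p = 0.00507) and -0.73 on the spike-in scale (adjusted p = 0.0571). In the dry yeasts CTA1 lay at percentiles 99.6 to 99.9 of its arrays, close to the top of the scale. Saturation was not tested.

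CTT1 (4924_at, locus YGR088W), whose product removes peroxide in the cytosol under stress, read 986, 962 and 750.2 in the control. It read 1511, 1385 and 2069 in dried BY4743, and 5297, 5182 and 4775 in commercial yeast. The groups formed 3 steps with no overlap, in the order control, dried, commercial. Dried BY4743 was 1.83-fold above the control (log2 change 0.87, SE 0.17, limma adjusted p = 0.00224), and this call was lost with spike-in scaling (0.41, adjusted p = 0.383). Commercial yeast was 3.12-fold above dried BY4743 (log2 change 1.64, 95% interval 1.24 to 2.04, adjusted p = 7.42e-05), which was also lost with spike-in scaling (0.65, adjusted p = 0.136), and 5.69-fold above the control (2.51, adjusted p = 4.6e-06), which became 1.06 with spike-in scaling (adjusted p = 0.0170).

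A ratio taken within an array does not move when a whole array is rescaled, so the catalases were also set against each other that way. The ratios were taken after quantile normalization, which is more than a rescaling and can move them. The CTA1 over CTT1 ratio was 29.8-fold higher in dried BY4743 than in the control, a difference of 4.90 on the log2 scale with SDs of 0.275 and 0.270 (p = 0.1 in a two-sided exact permutation test, the lowest value possible with 3 against 3 arrays). It was then 2.90-fold lower in commercial yeast than in dried BY4743, a difference of -1.54 (exact p = 0.1). Neither pair of groups overlapped, and over 14 alternative settings the latter difference lay between -1.74 and -1.38. Settings that only rescale whole arrays give the same ratio, so the 14 were not separate checks. The measured signals of the catalase genes thus changed by unequal amounts in both steps. In the second step CTA1 lay close to the top of the scale in both groups. A ceiling on its signal would also lower the ratio, which was not tested.

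The superoxide dismutase genes differed in how precisely they were measured. SOD2 (4526_at, locus YHR008C), the mitochondrial manganese enzyme, read 1275, 1288 and 1307 in the control, 2124, 2011 and 2035 in dried BY4743, and 3168, 3390.5 and 3490 in commercial yeast. The groups did not overlap, in the order control, dried, commercial, and its pooled within-group SD of 0.049 on the log2 scale lay at the 1.18 percentile of all probe sets. SOD2 was 1.59-fold higher in dried BY4743 than in the control (log2 change 0.67, SE 0.07, limma adjusted p = 5.61e-05) and 1.63-fold higher again in commercial yeast than in dried BY4743 (0.70, adjusted p = 5.91e-05). Commercial yeast was 2.59-fold above the control (1.38, adjusted p = 1.01e-06). With spike-in scaling these changes were 0.17 (adjusted p = 0.703), -0.42 (adjusted p = 0.286) and -0.25 (adjusted p = 0.524), so the last 2 turned their direction. On that scale the median probe set changed by -0.29, -1.10 and -1.43, and relative to it SOD2 changed by 0.46, 0.68 and 1.18.

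SOD1 (10897_at, locus YJR104C), the cytosolic copper and zinc enzyme, read 1768, 3000.0 and 2852 in the control. It read 4148, 3413 and 1761 in dried BY4743, and 3091, 2857 and 2990.2 in commercial yeast. The first control array and the third dried array were low, and the ranges of all 3 groups overlapped. No change passed the test: dried against control BY4743 gave 0.24 (95% interval -0.53 to 1.01, limma adjusted p = 0.538), commercial against dried BY4743 gave 0.03 (-0.74 to 0.79, adjusted p = 0.948), and commercial against control gave 0.27 (-0.50 to 1.03, adjusted p = 0.488). These intervals reach to about 1 on the log2 scale, so changes of the size seen for SOD2 in the first step were not detectable for SOD1. Without the third dried array the first of these changes was 0.62 (adjusted p = 0.0576) and the second -0.35 (adjusted p = 0.251). Without the first control array the first was 0.00 (adjusted p = 1) and the third 0.03 (adjusted p = 0.953). With spike-in scaling SOD1 was lower in commercial yeast than in dried BY4743 by -1.09 (adjusted p = 0.0100) and than in the control by -1.38 (adjusted p = 0.00151), near the median of all probe sets on that scale.

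The SOD1 over SOD2 ratio within arrays was 2.15-fold lower in commercial yeast than in the control, with no overlap (difference -1.11 on the log2 scale, SDs 0.116 and 0.408, exact p = 0.1, the lowest possible). In the other comparisons the ratio differed by -0.43 for dried against control BY4743 (exact p = 0.5) and by -0.68 for commercial against dried BY4743 (exact p = 0.2), with overlapping arrays.

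CCS1 (9616_at, locus YMR038C), whose product hands copper to Sod1, was the only member called lower in dried BY4743 than in the control. It read 955, 1066 and 1081 in the control, 329, 390.3 and 354 in dried BY4743, and 563, 629 and 649 in commercial yeast. Commercial yeast lay between the other groups, and no groups overlapped. CCS1 was 2.89-fold lower in dried BY4743 than in the control (log2 change -1.53, SE 0.10, limma adjusted p = 3.4e-06) and 1.69-fold lower in commercial yeast than in the control (-0.75, adjusted p = 0.00023). With spike-in scaling these changes were -1.90 and -2.52, both called. CCS1 was 1.72-fold higher in commercial than in dried BY4743 (0.78, 95% interval 0.55 to 1.01, adjusted p = 0.000241), a direction that turned with spike-in scaling (-0.62, adjusted p = 0.118) and was 0.48 relative to the median probe set there. In dried against control BY4743 the SOD1 interval began at -0.53, above the CCS1 change of -1.53.

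CCP1 (10491_at, locus YKR066C), which removes peroxide between the mitochondrial membranes, was highest in dried BY4743. It read 939.7, 824 and 775 in the control, 2158, 1471 and 2506 in dried BY4743, and 1477, 1022 and 1246 in commercial yeast. The second dried array read about the same as the first commercial array, so these groups just overlapped, while both lay above the control. CCP1 was 2.37-fold higher in dried BY4743 than in the control (log2 change 1.24, SE 0.22, limma adjusted p = 0.00114), a call lost with spike-in scaling (0.76, adjusted p = 0.116). Commercial yeast was 1.62-fold below dried BY4743 (-0.69, adjusted p = 0.0224, but -1.997 with spike-in scaling), and 1.46-fold above the control (0.55, adjusted p = 0.0499). The former call was lost without dried array 1 or 3 or commercial array 2 or 3, where the adjusted p reached 0.0743. The latter was lost without any 1 of the control arrays, dried array 1 or commercial array 1 or 3, where it reached 0.145, and it turned to -1.24 with spike-in scaling (adjusted p = 0.00861).

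Both regulators were raised in dried BY4743. YAP1 (9662_at, locus YML007W), the main activator of the peroxide response, read 381, 226 and 279.5 in the control, 1203, 1149 and 1253 in dried BY4743, and 589.6, 519.7 and 464 in commercial yeast. The groups did not overlap, with dried BY4743 highest and the control lowest. YAP1 was 4.16-fold higher in dried BY4743 than in the control (log2 change 2.06, SE 0.19, limma adjusted p = 2.27e-05) and 2.30-fold lower in commercial than in dried BY4743 (-1.20, adjusted p = 0.000663). These changes kept their direction and call under all 17 alternative settings, but with spike-in scaling the latter was larger, at -2.52 (adjusted p = 1.79e-05), and the former 1.77. Commercial yeast was 1.81-fold above the control (0.85, adjusted p = 0.00361), which turned to -0.75 with spike-in scaling (adjusted p = 0.0834). Yap1 is known to be controlled mainly through its location in the cell, which arrays do not measure.

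SKN7 (4319_at, locus YHR206W), a response regulator that acts beside Yap1 and also takes signals from the Sln1 osmosensor, read 533, 572.5 and 552 in the control. It read 1138, 991.5 and 1100.4 in dried BY4743, and 813, 924 and 994 in commercial yeast. Both dry yeasts lay above the control, and they overlapped each other over the range from 991.5 to 994. SKN7 was 1.95-fold higher in dried BY4743 than in the control (log2 change 0.96, SE 0.10, limma adjusted p = 5.02e-05), a call lost with spike-in scaling (0.61, adjusted p = 0.161). SKN7 was 1.64-fold higher in commercial yeast than in the control (0.72, adjusted p = 0.000281), which turned to -0.999 with spike-in scaling (adjusted p = 0.0168). The difference between the dry yeasts was -0.24 (95% interval -0.47 to -0.01, adjusted p = 0.0588). It passed the test with the deposited values (-0.38, adjusted p = 0.0132), with median centring (-0.35, adjusted p = 0.0242), with spike-in scaling (-1.61, adjusted p = 0.000674) and with an offset of 50 (-0.23, adjusted p = 0.0363).

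**Figure D2:**
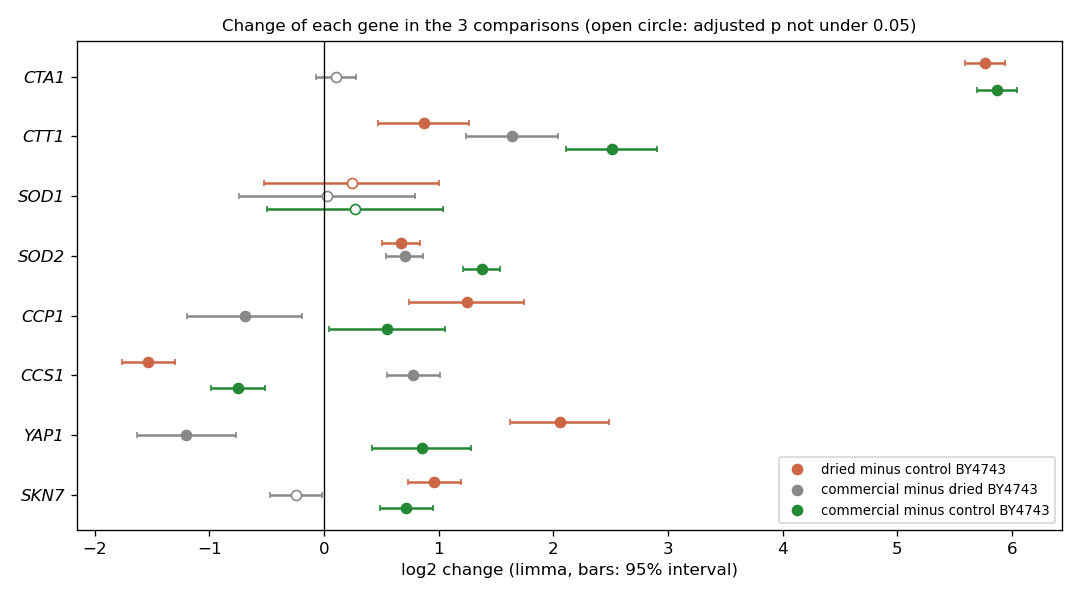
Log2 change of each gene in the 3 comparisons, with 95% intervals from limma as bars, filled circles where the adjusted p was under 0.05 and open circles where it was not. CTA1 stands apart with changes of 5.77 and 5.87 against the control, SOD1 has the widest intervals and no filled circle, and CCS1 is the one gene below 0 against the control.

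Counted together, 6 of the 8 genes rose and 1, CCS1, fell in dried BY4743 against the control, and SOD1 did not pass. Of all 9275 probe sets, 69.2% passed in this comparison, with 36.2% higher and 33% lower. For 7 of the 8 genes the groups showed no overlap, as for 74.6% of all probe sets. With 1 probe set for each of 5656 genes, 78.9% passed. The median log2 change was 0.91 for the 8 genes and 0.04 for all probe sets. With spike-in scaling 2 of the 8 rose, CTA1 and YAP1, and 1 fell. Of all 9275 probe sets, 1767 were then higher and 2989 lower. The higher ones were 37.2% of those called, against 52.3% after quantile normalization. The share of members called was read against these shares of all probe sets, which are high, so the counts alone do not set the 8 genes apart.

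Commercial against dried BY4743 is the pair named in the series title, and strain, culture and drying differ together in it. CTT1, SOD2 and CCS1 were higher in commercial yeast, CCP1 and YAP1 lower, and CTA1, SOD1 and SKN7 did not pass. Of all probe sets 66.5% passed, with 33.1% higher and 33.5% lower, and of the 5656 genes 70.2%. The arrays did not overlap for 5 of the 8 genes, CTA1 among them, where 72.8% of all probe sets did not overlap. The median change was 0.07 for the 8 genes and 0.00 for all probe sets. With spike-in scaling 0 of the 8 were higher and 4 lower. Of all 9275 probe sets, 819 were then higher and 5387 lower. The higher ones were 13.2% of those called, against 49.7% after quantile normalization. A low reading in commercial yeast can also come from sequence that differs from the laboratory strain, which was not tested.

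Commercial against control BY4743 gave 6 higher genes and 1 lower, CCS1, with SOD1 again not passing. Of the 6, CCP1 passed narrowly (limma adjusted p = 0.0499) and kept its direction and call in 8 of 17 alternative settings. Of all probe sets 72.5% passed here, with 35.5% higher and 37% lower, and of the 5656 genes 79%. Arrays did not overlap for 7 of the 8 genes against 75.5% of all probe sets. The median change was 0.78 for the 8 genes and -0.01 for all probe sets. With spike-in scaling 2 were higher, CTA1 and CTT1, and 4 lower. Of all 9275 probe sets, 814 were then higher and 6070 lower. The higher ones were 11.8% of those called, against 49.0% after quantile normalization. The 3 comparisons share their groups, so their changes are not independent of each other.

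**Figure D3:**
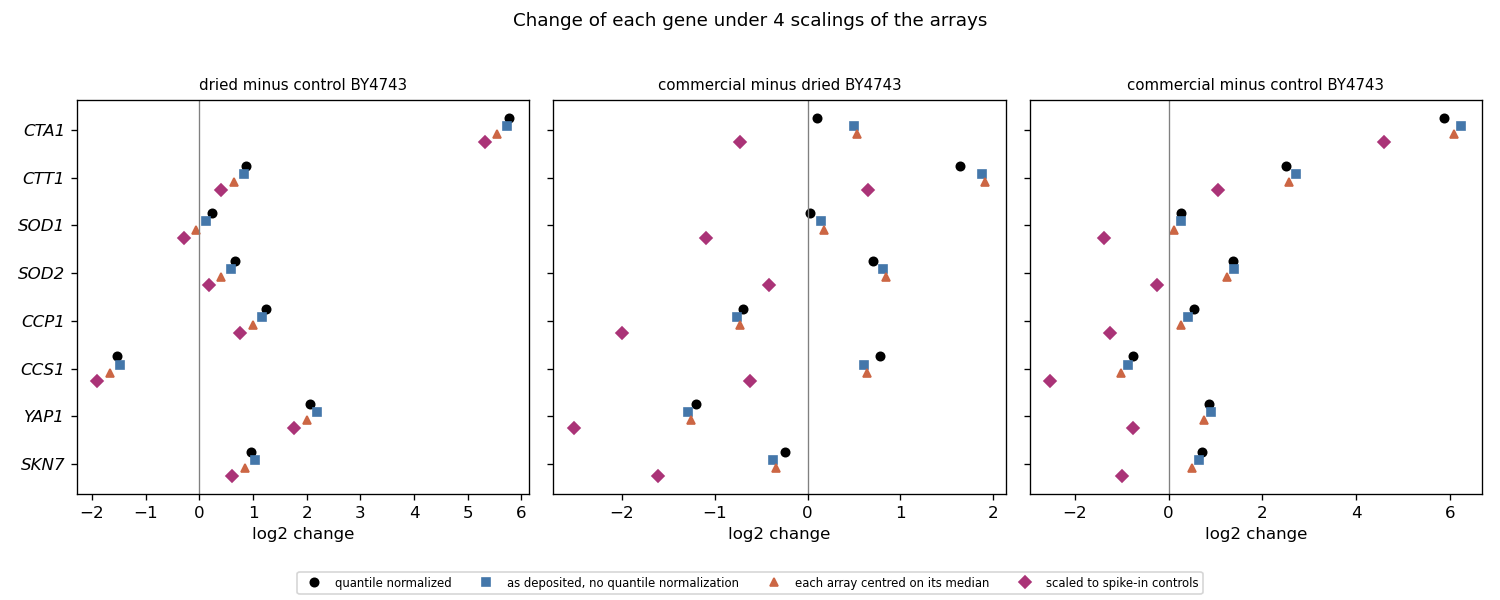
Log2 change of each gene in the 3 comparisons with arrays quantile normalized (circles), as deposited (squares), centred on their medians (triangles) and scaled to the spike-in controls (diamonds). The diamonds lie to the left, by most where commercial yeast is compared, where the median of all probe sets on that scale was -1.10 and -1.43. In commercial against dried BY4743, CTT1 is the highest and YAP1 the lowest of the 8 on all 4 scales.

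Spike-in controls are bacterial and phage transcripts added to a sample before it is put on the array. Over 9 control probe sets their mean log2 signal was 8.35 ± 0.291 in the control, 8.76 ± 0.484 in dried BY4743 and 10.00 ± 0.00595 in commercial yeast. The controls were brightest on the commercial arrays, which all read nearly the same. The SE of SOD2 was 0.07 after quantile normalization and 0.34 with spike-in scaling, and that of SKN7 was 0.10 and 0.36. Calls lost with spike-in scaling therefore go with a larger SE as well as with changed values. The sources used here do not state how much spike-in each sample received. More spike-in added and less labelled RNA on the array cannot be told apart from these values, and this holds for every value on the spike-in scale. RNA per cell was not measured, so that scale is not a per-cell scale.

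The enzymes that share the work with the 8 genes were described through lists of related genes. A gene was represented by its brightest probe set. Among all 5656 genes, 40.9% were higher and 38% lower in dried BY4743 against the control, and 32.1% were higher and 38.1% lower in commercial against dried BY4743. The median gene changed by 0.06 and -0.09.

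Thiol peroxidases also remove peroxide, using thioredoxin or glutathione. Of 9 genes, 4 were higher and 4 lower in dried BY4743, with a median log2 change of 0.60 that became -0.01 with spike-in scaling. GPX1, a glutathione peroxidase, rose from 809 ± 146 to 3588 ± 336 (2.16, SE 0.14, limma adjusted p = 3.71e-06). PRX1, the mitochondrial peroxiredoxin, rose from 584 ± 40.1 to 2410 ± 77.6 (2.05) and read 3326 ± 35.8 in commercial yeast. HYR1, also called GPX3, the sensor that passes the peroxide signal to Yap1, rose by 1.01 in dried BY4743 and was lower in commercial yeast by -0.58. That is the same order of groups as for YAP1: 1994 ± 135 in the control, 4025 ± 312 in dried BY4743 and 2683 ± 87.4 in commercial yeast. GPX2, another glutathione peroxidase, fell from 191 ± 16.2 to 74.3 ± 10.7 (-1.37) and lay at background in commercial yeast, at least 1.99-fold below dried BY4743. Between the dry yeasts, 3 of the 9 were higher in the commercial one and 2 lower (median 0.30, but -0.82 with spike-in scaling).

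Of 13 genes of thioredoxin and glutathione reduction, 3 were higher and 7 lower in dried BY4743 (median -0.30). GSH2, of glutathione synthesis, fell from 804 ± 48.5 to 114 ± 7.52 (-2.82, SE 0.08, limma adjusted p = 6.15e-08). TRR2 and TRX3, the mitochondrial thioredoxin reductase and thioredoxin, rose by 1.99 and 1.76. TRR1, the cytosolic thioredoxin reductase and a known target of Yap1, went the other way, from 2502 ± 251 in the control to 1102 ± 54.8 in dried BY4743 and 453 ± 67.7 in commercial yeast. Commercial yeast had 5 of them higher than dried BY4743 and 3 lower (median 0.18, but -1.05 with spike-in scaling), among them GRX2 at 0.95, TRX1 at 0.90 and TRR1 at -1.29.

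Copper supply moved in mixed directions. Of 10 genes of copper and manganese supply, 3 were higher and 4 lower in dried BY4743 (median -0.08). CUP2, the copper-sensing activator that controls metallothionein and SOD1 genes, rose from 305 ± 37.6 to 2297 ± 101 (2.92, SE 0.11, limma adjusted p = 1.46e-07), while SOD1 did not pass. CTR1, the main copper importer, fell from 248 ± 56.5 to background, at least 4.81-fold, and was at background in commercial yeast too. CCC2, a copper pump of the secretory pathway, rose by 1.63. Against dried BY4743, 3 were higher in commercial yeast and 5 lower (median -0.46). CTR3, another copper importer, lay at background in dried BY4743 and at 168 ± 9.53 in commercial yeast, at least 3.30-fold higher, and FRE1, a metal reductase, fell to background, at least 1.85-fold.

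Catalases and Ccp1 carry heme. Of 8 heme synthesis genes, 1 was higher and 6 lower in dried BY4743 (median -1.55, and below 0 under every scaling). HEM13, an oxygen-using step, fell from 563 ± 61.7 to background, at least 11.1-fold, and the log2 changes of HEM12 and HEM4 were -2.72 and -2.51. CTA1 and CCP1, whose products need heme, rose in the same cells. In commercial against dried BY4743, 4 heme genes were higher and 1 lower (median 0.57, but -0.66 with spike-in scaling), with HEM12 at 0.99 and HEM14 at 0.83. HEM13 was again above background on the commercial arrays, at 50.7 ± 3.54.

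Cytochrome c gives Ccp1 its electrons. Of 5 genes of cytochrome c and its supply, 2 were higher and 2 lower in dried BY4743 (median -0.19). CYC1, the main cytochrome c, fell from 1037 ± 61.3 to 101 ± 15.8 (-3.36, SE 0.15, limma adjusted p = 3.76e-07), and CYC7, the other form, changed by -1.17. CYB2, a lactate dehydrogenase that feeds cytochrome c, rose by 1.14. In commercial against dried BY4743, 4 were higher and 1 lower (median 0.77, but -0.64 with spike-in scaling), with CYC1 at 1.94 and CYB2 at 1.85. CCP1 moved opposite to CYC1 in both comparisons.

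Partners and targets of Yap1 and Skn7 moved both ways in dried BY4743. Of 6 signalling partners, 1 was higher and 2 lower in dried BY4743 (median -0.18, but 0.03 without the first control array). HSF1, the heat shock factor, rose from 366 ± 34.0 to 1595 ± 71.2 (2.13, SE 0.09, limma adjusted p = 2.74e-07), and YPD1, the relay protein upstream of Skn7, changed by -0.995. Commercial yeast had 1 of them higher than dried BY4743 and 4 lower (median -0.52), led by YPD1 at -1.47 and SLN1, the sensor at the head of that relay, at -1.42. Of 6 transport and reductase genes that are known Yap1 targets, 3 were higher and 3 lower in dried BY4743 (median -0.01, but 0.14 with the deposited values), with OYE2, an NADPH oxidoreductase, at -2.07 and FLR1, a drug exporter, at 0.84. In commercial against dried BY4743, 5 of these were higher and 0 lower (median 0.71, but -0.64 with spike-in scaling), with OYE3 at 2.89 and ATR1 at 1.36, while YAP1 itself was lower by -1.20.

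The known regulators of CTT1 split. Of 5, 3 were higher and 2 lower in dried BY4743 (median 0.98): the kinase gene RIM15 rose by 1.30, while MSN4, of the general stress factors, fell from 992 ± 49.4 to 158 ± 44.0 (-2.69, SE 0.19, limma adjusted p = 5.54e-06) and the osmostress kinase gene HOG1 changed by -2.07. From dried BY4743 to commercial yeast, 0 were higher and 3 lower (median -0.26), with MSN2 at -0.51, RIM15 at -0.44 and GIS1 at -0.26, while CTT1 was higher by 1.64.

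The fatty acid list holds 3 enzymes of peroxisomal fatty acid oxidation, the peroxisome membrane protein gene PEX11, and the activator genes ADR1, OAF1 and PIP2. All 7 rose in dried BY4743 against the control, as CTA1 did (median 2.01), and this direction held for the median under every scaling. POX1, acyl-CoA oxidase, the peroxide-forming step of that pathway, rose from 59.2 ± 9.98 to 3097 ± 285 (5.72, SE 0.13, limma adjusted p = 2.91e-08), close to the 5.77 of CTA1. POT1, the thiolase, rose by 4.36 and FOX2, the multifunctional enzyme, by 2.63. Between the dry yeasts, 2 were higher in commercial yeast and 2 lower (median 0.11, but -0.78 with spike-in scaling), with PIP2 at 1.43 and OAF1 and ADR1 at -0.54 and -0.41.

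**Figure D4:**
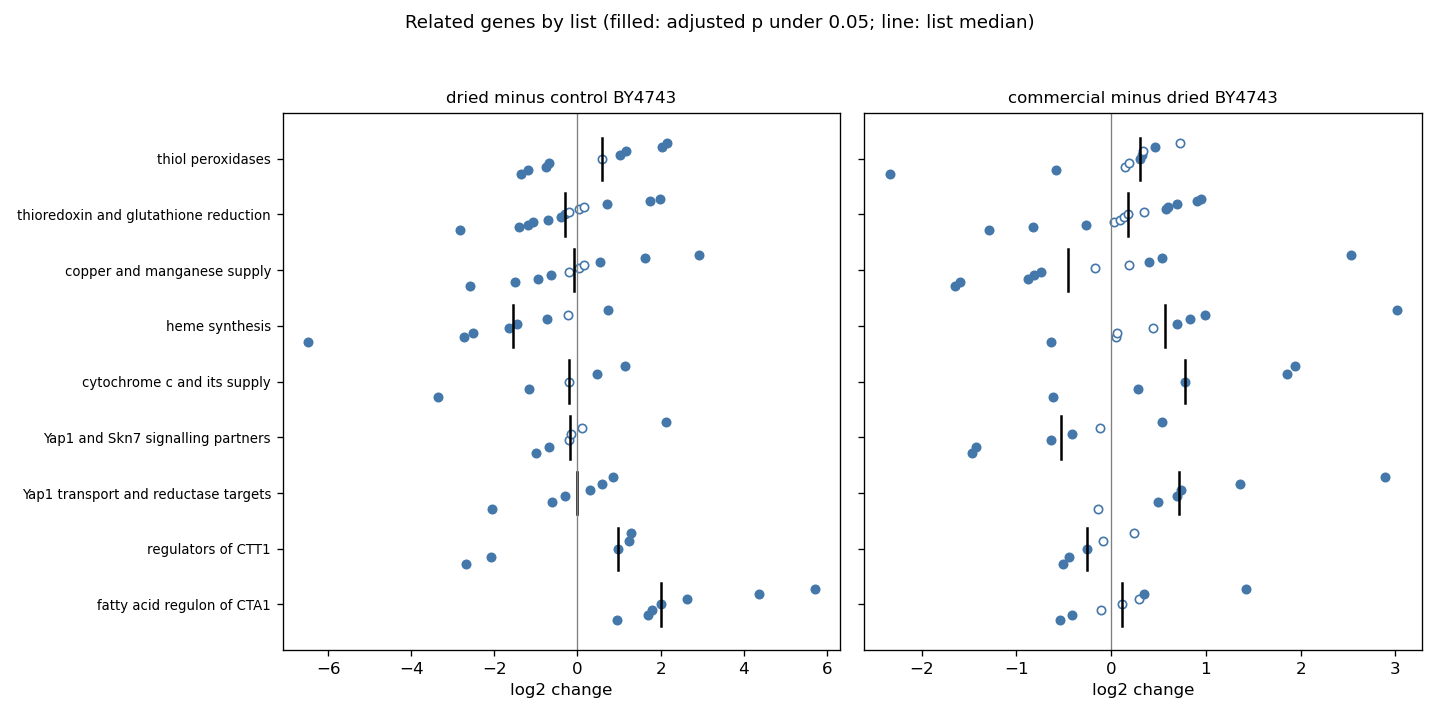
Log2 change of each gene of the 9 lists in dried against control BY4743 (left) and in commercial against dried BY4743 (right), on separate axis ranges, with filled circles where the adjusted p was under 0.05 and a line at the list median. All 7 genes of the fatty acid list lie above 0 on the left, where the heme genes have the lowest median, -1.55.

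The genes whose course over the 9 arrays was most like that of each member were found by the root mean square difference of log2 signals after each gene was centred on its own mean, among 5519 genes. For CTA1 they were ADY2, an acetate transporter, at 0.073, CRC1, a carnitine carrier, at 0.080 and PUT4, a proline permease, at 0.137, where the median gene differed by 2.80. For CTT1 they were FHN1 at 0.213, BNA2 at 0.216 and YRO2 at 0.221 (median 1.22). For SOD2 they were ASF2 at 0.072, CCZ1 at 0.080 and PDR3 at 0.088 (median 0.84), and for SOD1, whose arrays scatter, GLK1 at 0.181, STE3 at 0.223 and CPP1 at 0.245 (median 0.74). CCS1 was closest to CCT4, a chaperonin subunit, at 0.082, then PHO91 at 0.099 and MBA1 at 0.102 (median 0.88). CCP1 was closest to DID4 at 0.147, ATG22 at 0.181 and SFI1 at 0.185 (median 0.79). YAP1 was closest to ULP2 at 0.120, SNF3 at 0.130 and SDH5 at 0.171 (median 1.02), and SKN7 to YJU2 and DUF1, both at 0.079, and URC2 at 0.082 (median 0.72). These distances describe the same arrays and carry no test. They include the scatter of a member's own arrays, so their sizes cannot be compared between members. The pooled within-group SD on the log2 scale was 0.221 for CTT1 and 0.063 for CTA1.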

How the data were processed

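RNA of 9 yeast samples was measured on Affymetrix Y98 arrays. Per the labels' protocols, chip images were analysed with the manufacturer's GeneChip software, and the signals then passed through a signed rank test and a linear mixed model. Neither a software version nor a hybridisation date was given in the sources used here. The values the authors deposited are linear intensities, with 1 per probe set and array. Their array means, trimmed by 2% at both ends, were 500.2 to 500.3, which shows that arrays had been scaled to a common level.

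Intensities under 1 were set to 1 before log2. The medians of the arrays then differed by up to 0.287, more than the 0.1 allowed, and quantile normalization followed (limma 3.58.1, R 4.3.3). Group means were fitted with lmFit and eBayes to all 9 arrays, which left 6 residual degrees of freedom and added 1.64 prior ones. Tests were two-sided, with Benjamini-Hochberg adjustment over 9275 probe sets per comparison and a threshold of 0.05. In simulated data for dried against control BY4743, over 9275 probe sets, 60% of 100 log2 changes of 1 and 81% of 100 log2 changes of 2 were recovered, and 10 probe sets with no change were called. No other probe set was changed there, and the noise was drawn independently. In the real comparison 69.2% of probe sets passed, so these rates need not carry over to it.

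The background of an array was the 95th percentile of its 28 controls for absent transcripts. A fold against a group wholly at background is a bound, written "at least", in which each array of the dimmer group counts as its background or its own signal, whichever was higher.

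Names came from the platform annotation, with symbols brought up to the R64 RefSeq table through gene identifiers: 6504 probe sets named 1 gene, 328 several and 2503 none. Neither coordinates nor sequences are given, because the probes carry no build and no sequence table was used here. Besides the 8 members and the genotype markers, the text names, per list and comparison, genes among the 3 with the largest change past the threshold, and the 3 genes most like each member. HYR1 and TRR1 are followed into comparisons where this rule did not pick them, and genes under the other observations were named without it. The members and the gene lists were chosen with earlier results of these data known. Alternatives covered scaling, an offset, a floor at background, leaving out the dimmest 25% of probe sets, separate fits on 6 arrays, a replicate block and leaving out each array.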

Additional observations from a re-analysis of the deposited data

How the results depend on the processing

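Of the log2 changes of the 8 genes over all comparisons and alternatives, 370 kept their direction and call. Another 13 turned their direction, whether or not their call changed too. Of those that kept their direction, 17 lost and 8 gained a call. The cause was not tested. Scaling to the spike-ins changed most. In dried against control BY4743 it left 3 members called, not 7, and 4756 of all 9275 probe sets, not 6421. It put CTT1 at 0.41, SOD2 at 0.17, CCP1 at 0.76 and SKN7 at 0.61, no longer called, and SOD1 at -0.29. In commercial against dried BY4743 it gave CTA1 -0.73, CTT1 0.65, SOD1 -1.09, SOD2 -0.42, CCS1 -0.62 and SKN7 -1.61. In commercial against control BY4743 it gave SOD1 -1.38, SOD2 -0.25, CCP1 -1.24, YAP1 -0.75 and SKN7 -0.999. On that scale 37.2%, 13.2% and 11.8% of all called probe sets were higher in the 3 comparisons, against 52.3%, 49.7% and 49.0% after quantile normalization, and with a floor at background 38.4% in commercial against dried BY4743. Deposited values gave 0.50 for CTA1 and -0.38 for SKN7 in commercial against dried BY4743, both called, and 0.42 for CCP1 in commercial against control BY4743, not called. Median centring gave 0.53 and -0.35 for the same changes of CTA1 and SKN7, both called, and 0.26 for that of CCP1, not called. It gave -0.058 for SOD1 in dried against control BY4743, not called. An offset of 50 gave -0.23 for SKN7 in commercial against dried BY4743.

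Leaving out 1 array at a time, SOD1 ranged from -0.012 to 0.62 in dried against control and from -0.35 to 0.29 in commercial against dried BY4743. CCP1 ranged from -0.91 to -0.53 in commercial against dried and from 0.42 to 0.69 in commercial against control BY4743. SKN7 ranged from -0.31 to -0.17 in commercial against dried BY4743 and was called without dried array 2 or commercial array 3.

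The replicate numbers did not pair the arrays: deviations of the 9 same-numbered pairs correlated at -0.04 to 0.04. With a replicate block 7, 5 and 7 members were called, as without it, and 6330, 6015 and 6618 probe sets, against 6421, 6170 and 6727. Each gene had 1 probe set, so no second probe set could be tried. Signal over background limits CTA1 most, at 2.06 times background on the dimmest control array.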

Other observations

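Proteins of the mitochondrial matrix or intermembrane space that handle superoxide or peroxide were collected across the lists after their values had been seen, and carry no test. Of SOD2, CCP1, PRX1, TRX3, TRR2 and GRX5, 5 were higher in dried BY4743 than in the control and 1, GRX5 at -0.39, was lower. In commercial against dried BY4743, 3 were higher, 1 lower and 2 not called. Among all genes 40.9% were higher in the first of these comparisons. Cytosolic members moved both ways in it: TRX2 changed by 0.72, HYR1 by 1.01 and CTT1 by 0.87, and TRR1 and TRX1 by -1.18 and -1.40. Those are not all of them: AHP1 and TSA2 changed by -0.76 and -0.69, and TSA1 by 0.60, not called. GLR1, GRX2, CCS1 and SOD1, whose products lie in both compartments, were in neither set. They changed by -0.72, -0.30, -1.53 and 0.24, the last not called. Any contrast between the compartments depends on which genes are named, and it was not tested.

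Genes next to the 8 on the chromosomes, in RefSeq order, changed in both directions, and those named here were chosen after their values were seen. Beside CTA1, RMD5 changed by 1.68 and RKM4 by -1.73 in dried against control BY4743, so the genes flanking CTA1 moved in opposite directions. PDC6, a pyruvate decarboxylase gene beside CTT1, changed by 3.97 in that comparison and by a further 4.37 in commercial against dried BY4743 (limma adjusted p = 6.15e-08 and 1.3e-07), more than CTT1 in both, while NNF2 on the other side did not pass (adjusted p = 0.232 and 0.614). SCH9, a growth-control kinase gene beside SKN7, changed by 3.01 in dried against control BY4743 (adjusted p = 5.47e-08), and SET5 on its other side by -0.76. CCS1, which fell by 1.53, lies next to MSN2, which rose by 1.24.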
